A study of Mus musculus with 24 samples.

Results

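Dppa2, Dppa3, Dppa4, Dppa5a, Utf1, L1td1, Fbxo15, Nr0b1 and Sall4 are 9 genes known for expression in pluripotent cells, and they were followed here from mouse embryonic stem (ES) cells through differentiation in culture and in the heart. Their rows were chosen by gene symbol: every transcript cluster (the gene-level unit of the Affymetrix array) that the platform annotation gives 1 of these symbols was kept. That gave 12 transcript clusters of 35556 on the array, and 12 of the 21789 that carry 1 gene symbol. Dppa2, Dppa3 and Dppa4 had 2 clusters each and the other genes 1. RNA of 12 samples was measured, with 2 samples for each of 6 kinds of material. Culture gave 3 of these: undifferentiated ES cells (day 0), embryonic bodies (EB, the aggregates that differentiating ES cells form, day 7) and cardiac bodies (CB, later cultures in which heart muscle forms, day 14), and these cultures were differentiated in serum-containing medium. The other 3 were whole hearts from E17.5 embryos, from pups at postnatal day 1 (P1) and from adults. The labels give no ES cell line, no mouse strain, no adult age and no word on whether replicates were separate cultures or animals, so the p-values measure only the spread between these samples.

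The genes of this set mark cells that can still form any tissue of the embryo. Pluripotent cells keep them on under the transcription factors Oct4, Sox2 and Nanog, and shut most of them off as they take on a fate. Dppa2 and Dppa4 are a pair of DNA-binding SAP domain proteins that work together on chromatin. Dppa3, also called Stella, protects the egg's DNA methylation after fertilization and marks early germ cells. Dppa5a and L1td1 encode RNA-binding proteins, Utf1 a chromatin-associated protein, Fbxo15 an F-box protein of an SCF ubiquitin ligase, and Nr0b1 the orphan nuclear receptor Dax1. Sall4 is a zinc finger transcription factor of the ES cell network that is also used in other early embryonic tissues.

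RefSeq (GRCm38.p6) promoter windows were at hand for 3 of the 9 genes, Utf1, L1td1 and Nr0b1. These 3 are shown because only they had a window. Like Dppa2, Dppa4, Dppa5a and Fbxo15, they fell and then rose between the cultured groups. Each run below is the 250 bases before the gene's start, 5′ to 3′ on the gene's own strand, which is the plus strand for all 3. Capitals mark matches to any of 5 short motifs, searched on both strands: the octamer ATTTGCAT, the Sox element AACAAT, the element AAGGTCA of Esrrb and Nr5a receptors, the GC box GGGCGG and the TATA box TATAAA. The Utf1 window is chr7:139943606-139943855, the L1td1 window chr4:98726504-98726753 and the Nr0b1 window chrX:86191525-86191774.
Utf1: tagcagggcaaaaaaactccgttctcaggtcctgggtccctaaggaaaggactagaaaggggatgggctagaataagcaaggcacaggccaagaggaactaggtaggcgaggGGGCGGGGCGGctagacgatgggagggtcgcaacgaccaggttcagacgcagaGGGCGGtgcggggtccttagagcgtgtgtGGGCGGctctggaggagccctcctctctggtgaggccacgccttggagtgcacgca
L1td1: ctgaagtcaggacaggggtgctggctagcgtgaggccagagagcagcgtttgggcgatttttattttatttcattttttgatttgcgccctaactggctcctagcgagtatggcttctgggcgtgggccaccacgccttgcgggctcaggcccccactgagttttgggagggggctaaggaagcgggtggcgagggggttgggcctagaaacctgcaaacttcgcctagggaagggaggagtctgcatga
Nr0b1: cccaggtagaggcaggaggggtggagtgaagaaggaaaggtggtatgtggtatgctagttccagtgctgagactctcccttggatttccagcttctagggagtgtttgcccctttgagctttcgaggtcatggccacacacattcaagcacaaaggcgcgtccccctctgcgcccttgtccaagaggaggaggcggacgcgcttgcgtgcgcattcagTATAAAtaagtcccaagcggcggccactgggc

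The 3 windows differed in these motifs. Utf1 had 4 GC boxes, the first pair overlapping, and none of the other motifs. Nr0b1 had 1 TATA box that began 32 bases before the start, and L1td1 had no match to any of the 5. Among all 32851 promoter windows of this length, 32.7% held a GC box, 12.4% a TATA box, 9.42% the Sox element, 4.08% the AAGGTCA element and 1.6% the octamer. Utf1 had 14 CpG pairs and the other windows 11 each, against a median of 6 over all windows. Of all windows 70.6% held fewer than Utf1 and 64.4% fewer than L1td1 or Nr0b1. The GC content of the 3 windows was between 57.2% and 61.6%.

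Values are log2 signals as the authors deposited them. Array medians over all transcript clusters lay between 5.61 and 5.76, and signals were not tested against background. Differences are log2 differences of group means ± the standard error of a limma fit over all 12 arrays (n = 2 per group), with 95% intervals from the same fit and p-values adjusted over all 21789 clusters. A difference was called at an adjusted p under 0.05. The labelled tissues carried their markers: 8 cardiomyocyte markers had mean levels from 12.17 to 12.57 on the heart arrays, 11.59 and 11.10 in CB, and 5.50 and 5.57 in ES cells. The 2 EB arrays stood apart in other cell types. The mean of 8 primitive and visceral endoderm markers was 7.71 in EB replicate 1 and 6.41 in replicate 2, with 1 of 8 higher in replicate 2. On the heart arrays the mean of these 8 ran from 6.82 to 7.42, so the list does not mark endoderm alone. The mean of 4 red cell markers was 9.32 in EB replicate 1 and 5.66 in replicate 2, with 0 of 4 higher in replicate 2. In RNA from whole cultures and hearts, fewer cells of a type and less RNA per cell cannot be told apart.

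**Figure D1:**
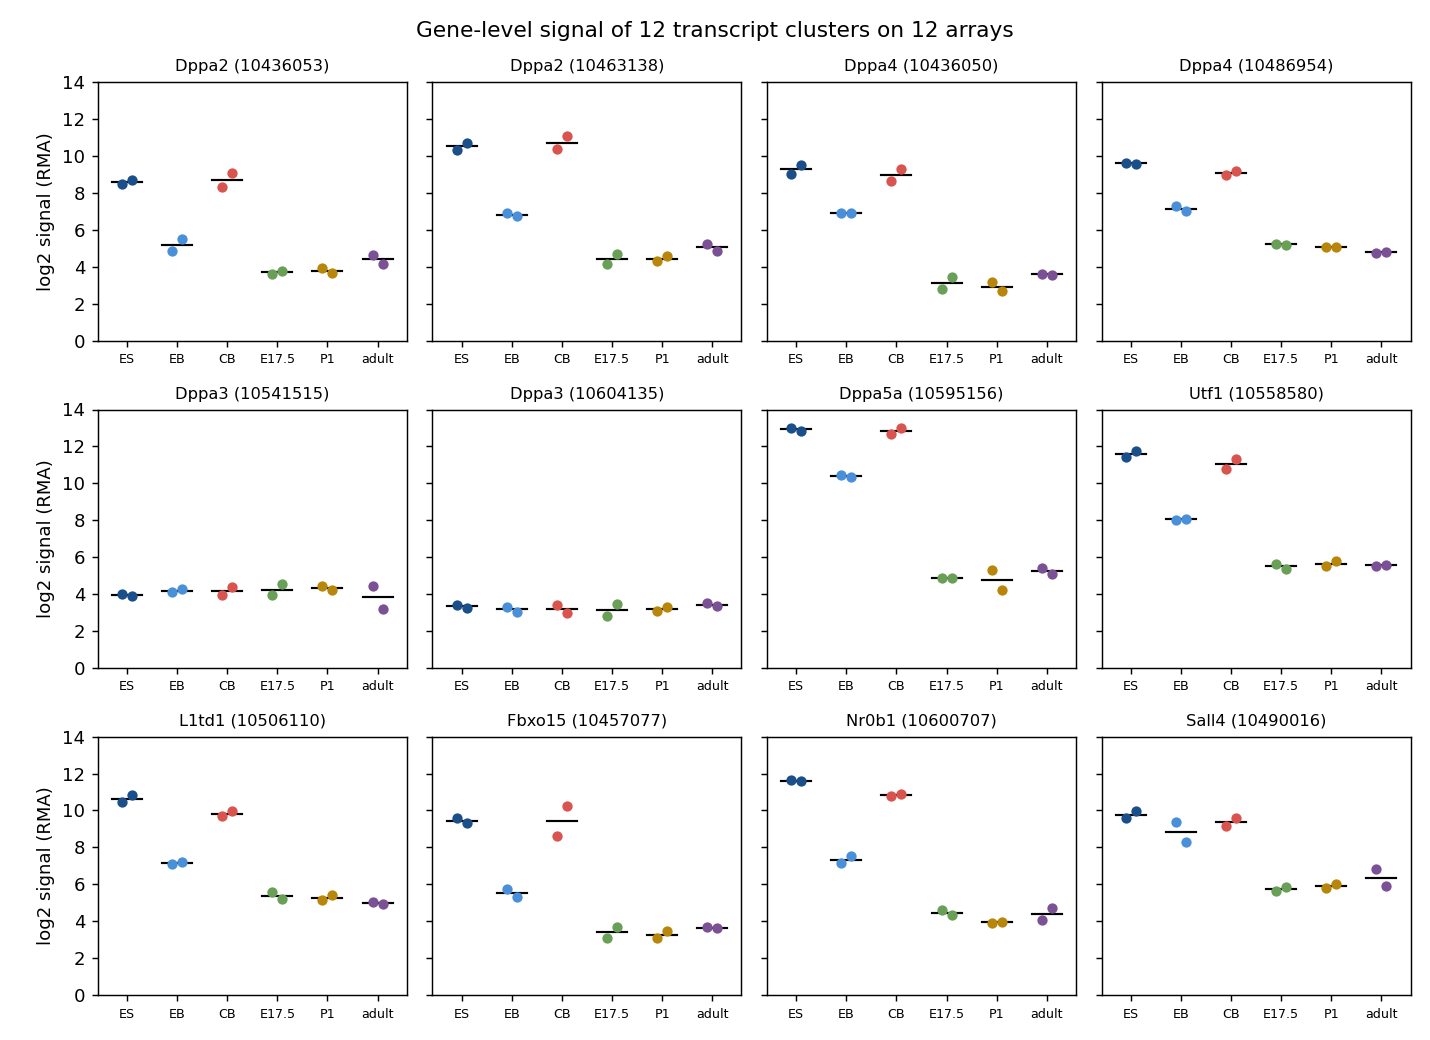
Log2 RMA signal (y axis) of the 12 transcript clusters in ES cells, embryonic bodies (EB), cardiac bodies (CB) and hearts at E17.5, P1 and adult age (x axis). Points are single arrays, 2 per group, and bars are group means; 10 clusters are high in ES cells and cardiac bodies and low in hearts, and both Dppa3 clusters stay between 2.80 and 4.52 on every array.

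Dppa2, Dppa4, Dppa5a, Utf1, L1td1, Fbxo15 and Nr0b1 fell between ES cells and day 7 embryonic bodies, to between 5.14% and 19.7% of the ES signal. That was 9 of the 12 clusters, where 8.42% of all tested clusters fell. No cluster rose, where 11.9% of all tested clusters rose, and the 3 that were not called were both Dppa3 clusters and Sall4. The median change of the 12 was -2.97, against -0.03 over all tested clusters. These 9 calls were made with any 1 of the 12 arrays left out, EB replicate 1 and 2 included.

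In the chromatin pair, Dppa2 (cluster 10436053) read 8.49 and 8.71 in ES cells, 4.87 and 5.48 in EB, and 8.33 and 9.07 in CB. Its EB arrays lay far below both other cultures and close to the hearts, whose 6 arrays ran from 3.61 to 4.65. It fell by 3.42 ± 0.28 from ES cells to EB (adjusted p = 6.18e-06). Dppa4 (cluster 10436050), which is next to Dppa2 in the RefSeq gene order with no gene between them, read 9.04 and 9.51 in ES cells, 6.93 and 6.93 in EB, and 8.64 and 9.32 in CB. Both EB arrays stayed well above the hearts, which ran from 2.68 to 3.63. Dppa4 fell by 2.35 ± 0.28 (adjusted p = 9.98e-05), to 19.7% of the ES signal, where Dppa2 was at 9.34%.

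The other clusters of this pair gave changes of like size. The Dppa2 cluster 10463138 read 10.34 and 10.70 in ES cells, 6.90 and 6.76 in EB, and 10.36 and 11.08 in CB, and fell by 3.69 ± 0.27 to EB. Its values on all 12 arrays were identical to those of 1 exon-level probe set (10463139) that the exon-level annotation gives to Dppa2 and also to Gm9788, a pseudogene in RefSeq, so its signal cannot be given to Dppa2 alone. The Dppa4 cluster 10486954 read 9.63 and 9.59 in ES cells, 7.27 and 7.04 in EB, and 8.98 and 9.20 in CB. It fell by 2.45 ± 0.16 and also rested on 1 exon-level probe set (10486955), and whether it reads Dppa4 alone was not tested.

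Dppa5a (cluster 10595156), the RNA-binding KH-domain protein gene, read 12.98 and 12.86 in ES cells, 10.42 and 10.36 in EB, and 12.68 and 13.02 in CB. The hearts read 4.85 and 4.86 at E17.5, 5.30 and 4.19 at P1, and 5.39 and 5.08 in adults, so embryonic bodies lay between the other cultures and the hearts without touching either. Dppa5a fell by 2.53 ± 0.29 to EB (adjusted p = 7.18e-05). RefSeq lists the pseudogenes Dppa5b and Dppa5c on chromosome 9, and whether the cluster also reads them was not tested. L1td1 (cluster 10506110), the RNA-binding protein gene derived from a LINE-1 element, read 10.48 and 10.81 in ES cells, 7.08 and 7.21 in EB, and 9.67 and 9.98 in CB, with hearts from 4.95 to 5.56. The EB values were lower than those of either other culture, and the fall was 3.50 ± 0.20 (adjusted p = 6.06e-07).

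Nr0b1 (cluster 10600707), the Dax1 receptor, had the largest fall of the 12 clusters. It read 11.65 and 11.59 in ES cells, 7.13 and 7.54 in EB, and 10.78 and 10.88 in CB, with hearts from 3.90 to 4.73. The fall to EB was 4.28 ± 0.23 (adjusted p = 4.23e-07), which left 5.14% of the ES signal. Utf1 (cluster 10558580), the chromatin-associated factor, read 11.42 and 11.75 in ES cells, 8.03 and 8.05 in EB, and 10.77 and 11.33 in CB. The 2 EB arrays were nearly alike, and the fall was 3.55 ± 0.22 (adjusted p = 8.74e-07). Fbxo15 (cluster 10457077), the F-box gene, read 9.59 and 9.31 in ES cells, 5.76 and 5.31 in EB, and 8.64 and 10.22 in CB. It fell by 3.92 ± 0.40 (adjusted p = 3.34e-05), and its 2 CB arrays lay further apart than those of any of the other 11 clusters.

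Sall4 (cluster 10490016) stayed high through all 3 cultures. It read 9.60 and 9.95 in ES cells, 9.36 and 8.27 in EB, and 9.15 and 9.57 in CB, against hearts at 5.65 and 5.84 (E17.5), 5.82 and 6.01 (P1), and 6.83 and 5.89 (adult). Its change from ES cells to EB was -0.96 ± 0.35, with an interval from -1.73 to -0.19, and was not called (adjusted p = 0.0794). The call turned on the 2 EB arrays: without EB replicate 1 the change was -1.51 and called (adjusted p = 0.0122), and without EB replicate 2 it was -0.42 (adjusted p = 0.52). EB replicate 1, with the higher Sall4, was also the array with the higher means of the endoderm and red cell lists. The part of the cell mixture in the Sall4 value was not tested.

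Of the 3 paralogs of Sall4, Sall1 was likewise above the E17.5 hearts in all 3 cultures. It read 8.87 and 9.02 in ES cells, 7.93 and 8.56 in EB, and 8.10 and 8.08 in CB. The excess over E17.5 hearts was 2.78 ± 0.30 in ES cells, 2.08 ± 0.30 in EB and 1.93 ± 0.30 in CB, each called. From ES cells to EB Sall1 changed by -0.70 ± 0.30 (adjusted p = 0.141). Sall2 rose by 0.76 ± 0.20 (adjusted p = 0.0171), from 5.35 to 6.11. Sall3 changed by -0.41 ± 0.23 (adjusted p = 0.275). None of the 3 paralogs was called between cardiac bodies and embryonic bodies by limma, 1 having an unadjusted p under 0.05.

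Dppa3 showed no called difference in any of the 9 comparisons on all 12 arrays. Cluster 10541515 read 4.005 and 3.89 in ES cells, 4.09 and 4.24 in EB, 3.96 and 4.40 in CB, 3.93 and 4.52 at E17.5, 4.45 and 4.23 at P1, and 4.43 and 3.21 in adults. The groups overlapped, and all these values were below the array medians. The adult arrays differed most, and without adult replicate 1 the difference was called between adult and P1 hearts, at -1.13 (adjusted p = 0.015), and between adult and E17.5 hearts, at -1.02 (adjusted p = 0.02). ES cells minus E17.5 hearts was -0.28 ± 0.33, with an interval from -1.01 to 0.45. Cluster 10604135 ran from 2.96 to 3.42 in culture and from 2.80 to 3.51 in hearts, with a difference of 0.19 ± 0.24 between ES cells and E17.5 hearts (interval -0.33 to 0.71). RefSeq also lists a pseudogene, Dppa3-ps, on chromosome X, and whether either cluster reads it was not tested.

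Germ cell markers were followed because Dppa3, Utf1 and Sall4 are also expressed in germ cells. Of 8 such markers, 4 fell and 1 rose from ES cells to EB, where 8.42% of all tested clusters fell and 11.9% rose. Their median was -1.14 against -0.03 over all tested clusters. Ddx4, an RNA helicase of germ cells, fell by 2.96 ± 0.38, and Mael, a piRNA pathway gene, by 2.78 ± 0.32. Dazl, a germ cell RNA-binding protein gene, fell by 1.88 ± 0.21, while Prdm1, a repressor used in germ cells and other lineages, rose by 1.68 ± 0.23. The mean level of the list ran from 5.38 to 5.51 in EB, from 5.44 to 6.16 in CB, from 6.48 to 6.50 in ES cells and from 4.49 to 4.66 in hearts. Their part in the values of Utf1 and Sall4 was not tested.

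From embryonic bodies to cardiac bodies the same 9 clusters rose, where 5.33% of all tested clusters rose. No cluster fell, where 6.04% of all tested clusters fell, and the median change was 2.57 against -0.02. This comparison and the one before it share the EB arrays, so a low EB value enters both. Fbxo15 rose by 3.90 ± 0.40 (adjusted p = 6.31e-05), Dppa2 (10436053) by 3.53 ± 0.28 (adjusted p = 8.3e-06) and Nr0b1 by 3.49 ± 0.23 (adjusted p = 2.26e-06). Utf1 rose by 3.01 ± 0.22, L1td1 by 2.68 ± 0.20, Dppa5a by 2.46 ± 0.29 and Dppa4 (10436050) by 2.05 ± 0.28. Sall4 changed by 0.54 ± 0.35, with an interval from -0.23 to 1.31 (adjusted p = 0.43).

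**Figure D2:**
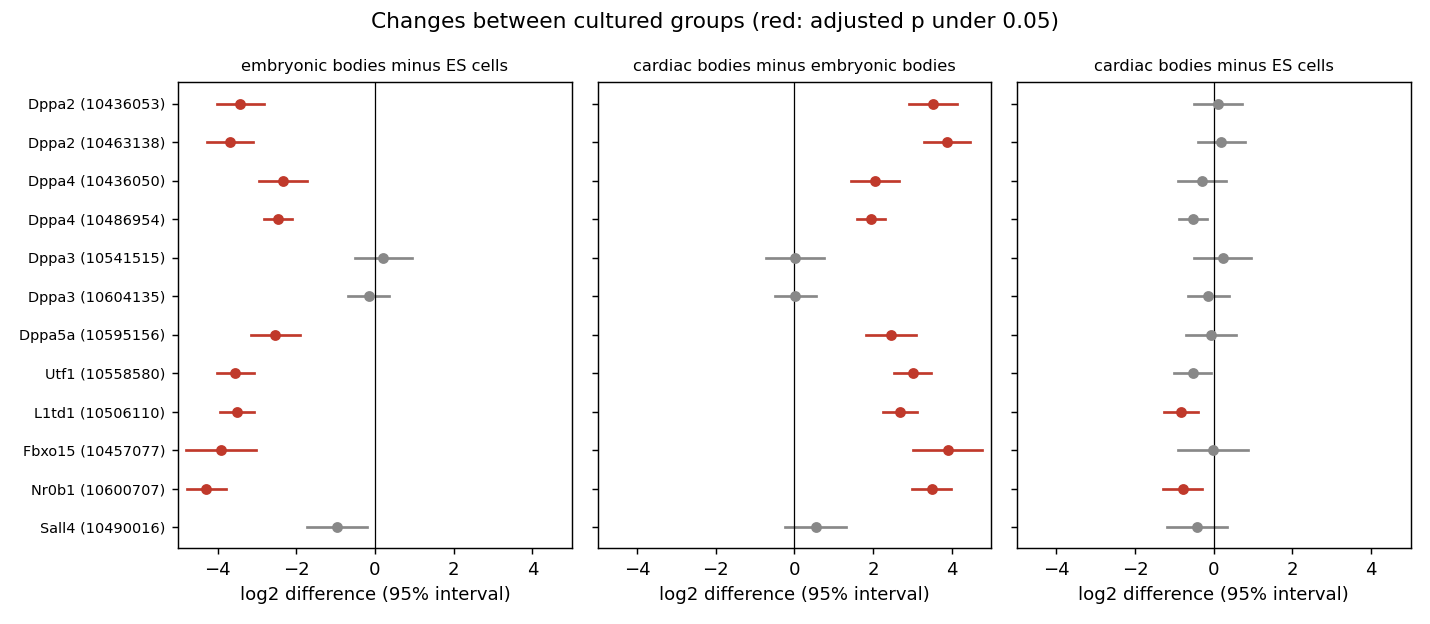
Log2 differences (x axis) of the 12 clusters between the cultured groups, with 95% intervals from the limma fit; red points have an adjusted p under 0.05. Between embryonic bodies and ES cells 9 called clusters lie left of 0, the same 9 are called and lie right of 0 between cardiac bodies and embryonic bodies, and 2 (L1td1 and Nr0b1) are called between cardiac bodies and ES cells.

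Between cardiac bodies and ES cells few differences were called. Of the 12 clusters 2 fell, where 3.5% of all tested clusters fell, and none rose, where 6.17% did. The median change of the 12 was -0.22, against -0.05 over all tested clusters. L1td1 fell by 0.82 ± 0.20 (adjusted p = 0.0206), to 56.6% of the ES signal, and Nr0b1 by 0.79 ± 0.23 (adjusted p = 0.0481), to 57.9%. The L1td1 call was made in 15 of 18 alternatives. It was not made without ES replicate 2 (adjusted p = 0.204), without CB replicate 1 (0.201) or with the median of exon-level values (0.176). The Nr0b1 call was not made in 9 of 18 alternatives, among them without either ES, CB or E17.5 array, with adjusted p from 0.023 to 0.252 over all 18.

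For the other clusters the interval gives what the arrays allow. Dppa5a differed by -0.07 ± 0.29, between -0.70 and 0.56. Dppa2 (10436053) differed by 0.11 ± 0.28, between -0.50 and 0.71, and Fbxo15 by -0.02 ± 0.40, between -0.90 and 0.86. Utf1 was at -0.54 ± 0.22, with an interval from -1.01 to -0.07 that leaves out 0, but its adjusted p was 0.167. The second Dppa4 cluster (10486954) was likewise at -0.52 ± 0.16 (adjusted p = 0.0719). These intervals are not adjusted for the number of clusters.

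The 2 CB arrays differed in the same direction in most of these rows. Replicate 2 was higher in 11 of the 12 clusters, by a median of 0.43, where 9196 of 21789 tested clusters were higher in replicate 2 and the median was -0.05. Fbxo15 differed most, by 1.58, then Dppa2 (10436053) by 0.74. All 8 cardiomyocyte markers went the other way, with a median of -0.45 and mean levels of 11.59 in replicate 1 and 11.10 in replicate 2. All 8 rose from EB to CB, with a median of 5.68. The part of the cell mixture in these differences was not tested.

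**Figure D3:**
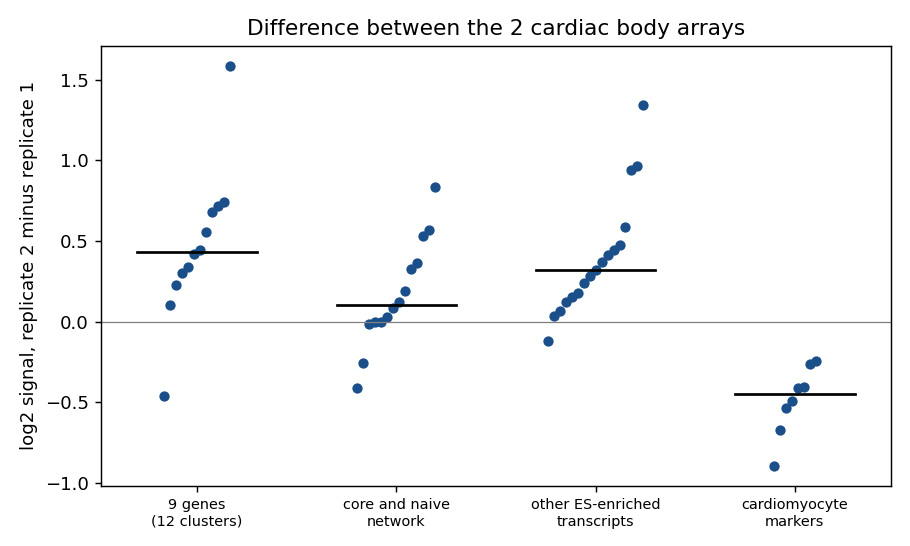
Log2 signal of CB replicate 2 minus replicate 1 (y axis) for the 12 clusters, 14 core and naive network genes, 17 other ES-enriched transcripts and 8 cardiomyocyte markers. Points are clusters or genes and bars are medians, at 0.43, 0.10, 0.32 and -0.45; the 8 cardiomyocyte markers all lie below 0.

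All 3 cultured groups stood above the hearts in every gene but Dppa3. For 10 of the 12 clusters the lowest of the 6 culture arrays was above the highest of the 6 heart arrays, where this held for 13.3% of all tested clusters. Against E17.5 hearts, the same 10 were higher in ES cells (18.8% of all tested clusters), in EB (15.7%) and in CB (12%). None of the 12 was lower in any of these 3 comparisons, where 17.9%, 11.9% and 11.8% of all tested clusters were. The 3 comparisons share the E17.5 arrays.

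ES cells exceeded E17.5 hearts by 8.07 ± 0.29 in Dppa5a, 7.16 ± 0.23 in Nr0b1, 6.15 ± 0.28 in Dppa4 (10436050) and 4.03 ± 0.35 in Sall4. Embryonic bodies still exceeded them by 5.54 ± 0.29 in Dppa5a (adjusted p = 1.07e-07), 3.81 ± 0.28 in Dppa4 (10436050) and 3.07 ± 0.35 in Sall4 (adjusted p = 5.75e-05). The smallest EB excess was in Dppa2 (10436053), at 1.48 ± 0.28 (adjusted p = 0.00173). Set on the log2 span from E17.5 heart (0%) to ES cells (100%), EB stood at 76.2% in Sall4, 68.6% in Dppa5a and 61.9% in Dppa4 (10436050). It stood at 41.8% in Utf1, 40.2% in Nr0b1, 35.3% in Fbxo15, 33.7% in L1td1 and 30.2% in Dppa2 (10436053). The other Dppa4 cluster gave 44.3% and the other Dppa2 cluster 39.4%, so the 2 clusters of a gene could differ by more than some genes did. Whether the heart end of each span is above background was not tested.

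Cardiac bodies exceeded E17.5 hearts by 7.99 ± 0.29 in Dppa5a, 6.37 ± 0.23 in Nr0b1, 5.56 ± 0.22 in Utf1 and 3.61 ± 0.35 in Sall4. In the same comparison 5 of 8 cardiomyocyte markers were lower in CB (11.8% of all tested clusters) and none was higher (12%), with a median of -0.96. The same 2 day 14 samples thus held both sets of transcripts at high levels.

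Within the hearts no difference was called on all 12 arrays. Limma called 0 of 12 clusters between P1 and E17.5, where 4.81% of all tested clusters were called in either direction, 0 between adult and P1 (30.6%) and 0 between adult and E17.5 (36.3%). At an unadjusted p under 0.05 the counts were 1, 3 and 3. Of the 36 heart group means 33 were below the median of all gene-level values, 5.67, and the other 3 were those of Sall4 at E17.5, P1 and adult age. In adults Sall4 was at 6.36 ± 0.66 (SD, n = 2), and its difference from E17.5 was 0.61 ± 0.35 (adjusted p = 0.205). Between adult and E17.5 hearts the 2 Dppa4 clusters differed in sign, with 10436050 at 0.47 ± 0.28 (adjusted p = 0.223). In that comparison Dppa2 (10436053) differed by 0.72 ± 0.28 (adjusted p = 0.062) and Dppa4 (10486954) by -0.43 ± 0.16 (adjusted p = 0.057). These 2 values lay near the threshold: the Dppa2 difference was called when either EB or either CB array was left out of the fit (adjusted p = 0.0465 and 0.0415), and that of Dppa4 when either P1 array was (0.0475). Between adult and P1 hearts Dppa5a was called without P1 replicate 1, at 1.04 (adjusted p = 0.00309), and Nr0b1 without adult replicate 1, at 0.79 (adjusted p = 0.0288). Nr0b1 differed by -0.52 ± 0.23 between P1 and E17.5 hearts (adjusted p = 0.239).

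At exon level the 9 genes had 48 probe sets with 1 symbol, measured on the same arrays and so no independent evidence. Of these 28 fell from ES cells to EB, where 1.98% of the 212097 tested probe sets fell, and none rose (3.99% of all). From EB to CB 26 rose (1.61% of all) and none fell (0.887%). The count of 26 was 17 without EB replicate 2 and 15 without CB replicate 2. Between CB and ES cells limma called none in either direction (2.72% of all), with 3 at an unadjusted p under 0.05.

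All probe sets of Dppa2 (3), Dppa4 (3), Dppa5a (3), Utf1 (2) and Nr0b1 (2) fell from ES cells to EB, and so did 10 of 11 in Fbxo15 and 5 of 6 in L1td1. In Fbxo15 the changes ran from -4.14 to -2.49, and in Nr0b1 the 2 probe sets were at -4.30 and -4.28. The odd L1td1 probe set (10506111) read 4.19 and 3.56 in ES cells, 5.70 and 5.06 in EB, and 4.06 and 4.75 in CB. Its change of 1.503 ± 0.68 was not called (adjusted p = 0.27), while the other 5 fell by 3.34 to 3.86. A Dppa5a probe set (10520418) had the same 12 values as a gene-level cluster (10520417) that the gene-level annotation calls Gm6083, a transcribed pseudogene in RefSeq. That row was left out of the Dppa5a cluster count, and its probe set changed by -2.86 from ES cells to EB.

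**Figure D4:**
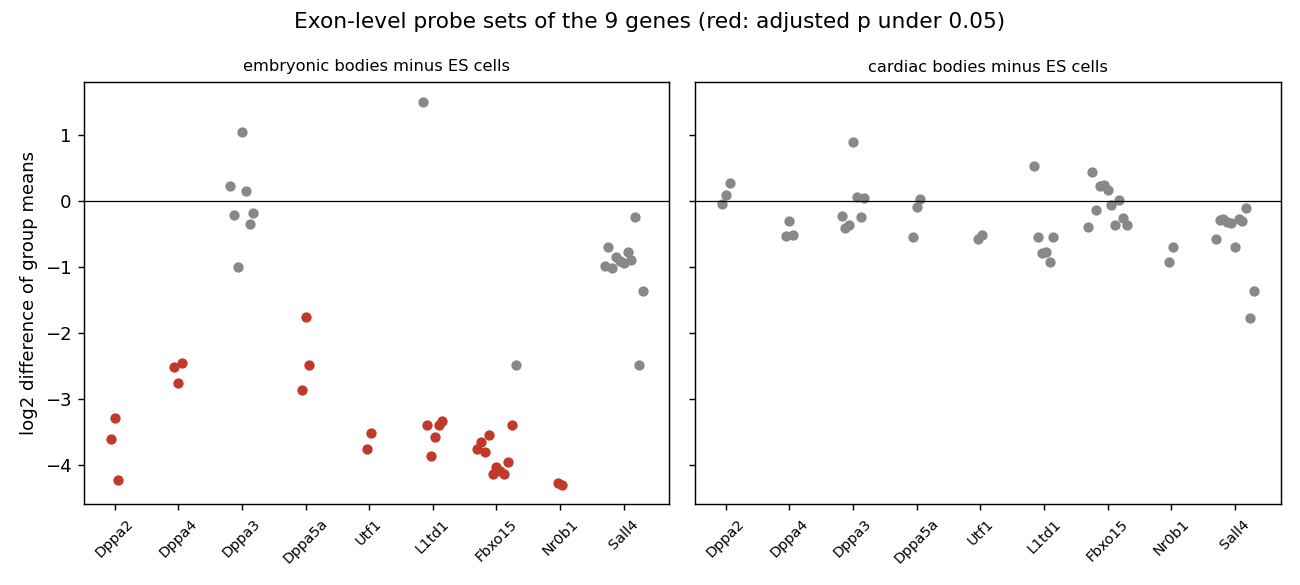
Log2 differences (y axis) of the 48 exon-level probe sets of the 9 genes (x axis), for embryonic bodies minus ES cells and cardiac bodies minus ES cells. Each point is 1 probe set and red points have an adjusted p under 0.05; the 28 called points lie between -4.30 and -1.76 in the first panel, and no point is called in the second.

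None of the 11 Sall4 probe sets was called between EB and ES cells by limma, with 3 at an unadjusted p under 0.05. All 11 differences were below 0, from -2.49 to -0.25, with a median of -0.91. The largest belonged to probe set 10490026, which read 7.46 and 7.25 in ES cells, 5.85 and 3.88 in EB, and 5.38 and 5.79 in CB. Its change was -2.49 ± 0.65 (adjusted p = 0.056). Probe set 10490025 was flat over the whole series: it ran from 8.35 to 8.84 in culture and from 8.03 to 9.05 in hearts, so the groups overlapped. In 8 of the 11 Sall4 probe sets the lowest culture array was above the highest heart array. The share of all probe sets with this order was not counted, and at gene level it was 13.3% of tested clusters. For Dppa3, 0 of 7 probe sets had it, and its probe set 10541518 read higher in E17.5 hearts (7.61 and 8.05) than in ES cells (6.33 and 7.11).

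Other genes of the pluripotency network, taken from lists chosen with earlier results of these data known, mostly also fell to EB and rose to CB. Of 14 core and naive network genes 12 fell from ES cells to EB and none rose, with a median of -2.42. Over all tested clusters 8.42% fell and 11.9% rose. Zfp42, the Rex1 gene, fell by 4.04 ± 0.20, Esrrb, an orphan nuclear receptor, by 3.59 ± 0.28, Pou5f1 (Oct4) by 3.34 ± 0.20 and Nanog by 3.25 ± 0.17. From EB to CB 10 of the 14 rose (5.33% of all), with a median of 1.33. Lin28a changed by 0.22 ± 0.18 and -0.46 ± 0.18 in these 2 comparisons, neither called. Between CB and ES cells 10 of the 14 fell (3.5% of all), with a median of -0.99. Of the 12 clusters of the 9 genes 2 fell there, with a median of -0.22. The germ line regulator Prdm14 fell by 1.82 ± 0.25 in that last comparison. The naive factors Tfcp2l1, Klf5 and Klf4 changed by -1.70 ± 0.34, -1.66 ± 0.25 and -1.64 ± 0.28.

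Among 17 measured other ES-enriched transcripts 15 fell from ES cells to EB (8.42% of all tested clusters) and 15 rose from EB to CB (5.33%). Between CB and ES cells 7 fell (3.5%) and 1 rose (6.17%). Their medians were -2.45, 1.90 and -0.61. Dnmt3l, the cofactor of de novo DNA methylation, fell by 4.33 ± 0.33 and then rose by 4.28 ± 0.33. Jam2, a junctional adhesion molecule, fell by 3.87 ± 0.29, Tdgf1, the Nodal co-receptor Cripto, by 3.78 ± 0.26, and Tcl1, a cofactor of Akt kinase, by 3.60 ± 0.31. Tcl1 and Khdc3, a maternal-effect gene, were still lower in CB than in ES cells, with changes of -2.42 ± 0.31 and -1.95 ± 0.20. Trap1a, a tumour antigen gene, fell by 1.32 ± 0.27 and Eras, an ES-cell Ras protein gene, changed by -1.30 ± 0.20 in that comparison.

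Genes that work with the 9 genes gave 1 called change of 5 from ES cells to EB, a fall. Over all tested clusters 8.42% fell and 11.9% rose. Of the SCF subunits that F-box proteins bind, Skp1a changed by -0.09 ± 0.24, Cul1 by 0.55 ± 0.35 and Rbx1 by 0.27 ± 0.18, and none of these was called. Nr5a1, the steroidogenic receptor that Nr0b1 represses in gonad and adrenal, changed by -0.25 ± 0.21 (adjusted p = 0.511). Its list of 5 steroidogenic markers had means between 4.13 and 4.53 on every array, with 1 falling (Cyp11a1, by 0.62 ± 0.20). Foxd3, a forkhead factor of ES cells, fell by 1.34 ± 0.20 (adjusted p = 0.000551). Of 10 listed 2-cell stage genes, which Dppa2 and Dppa4 are known to regulate, 3 were measured, and none was called between EB and ES cells by limma, 1 having an unadjusted p under 0.05. From EB to CB 2 of these 3 rose (5.33% of all), Tcstv3 by 0.86 ± 0.18 and Zfp352 by 0.76 ± 0.22. Their means in CB, 3.95 and 5.22, were below the median of all gene-level values, 5.67. Tcstv3 was also higher in CB than in ES cells, by 0.66 ± 0.18.

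Markers of later cell states included genes that rose while most of the 9 fell. Of 5 measured primed epiblast markers 2 rose, 1 fell and 2 were not called from ES cells to EB, with a median of -0.09. Over all tested clusters 11.9% rose and 8.42% fell. Otx2, a head and epiblast homeobox gene, rose by 2.04 ± 0.40 and Fgf5, an epiblast growth factor gene, by 1.61 ± 0.20. Foxd3, also on this list, fell as given above. Of 8 primitive and visceral endoderm markers 6 rose and none fell, with a median of 2.01. Ttr, the transthyretin gene, rose by 3.56 ± 0.97, but its EB arrays lay far apart. It read 10.44 in EB replicate 1 and 5.87 in replicate 2, against 4.67 and 4.53 in ES cells. Gata6, a GATA factor, rose by 2.85 ± 0.29. Gata4 and Gata6 read 7.64 and 8.41 in EB but were higher still in E17.5 hearts, at 9.39 and 10.08. These 2 therefore do not mark endoderm alone here. Against E17.5 hearts, 3 of the 8 were lower in EB and 3 higher. Between CB and ES cells 4 of these 8 were higher (6.17% of all), with Afp, alpha-fetoprotein, at 5.15 ± 0.24 above ES cells. Their part in the values of the 9 genes was not tested.

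Leaving aside Sall4 and Dppa3, the rows most like these genes included Lncenc1, Dnmt3l, Nanog, Bcat1, Gdf3, Tdgf1 and Zfp640. Likeness was the root mean square difference of log2 values over the 12 arrays after each row was centred on its mean, a description with no test. Fbxo15 and the Dppa2 cluster 10463138 were each other's nearest row in the whole table, at 0.27. The rows nearest to Utf1 outside the 9 genes were Nanog (0.24), Gm6083 (0.36) and Slc7a3 (0.36). For Nr0b1 they were Tdgf1 (0.43), Lncenc1 (0.49) and Dnmt3l (0.51), for L1td1 Triml2 (0.34), Gdf3 (0.39) and Hsf2bp (0.39), and for Fbxo15 Dnmt3l (0.47), Nanog (0.57) and Lncenc1 (0.59).

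For Dppa2 the nearest rows were Gdf3 (0.43), AU018091 (0.54) and Bcat1 (0.56) with cluster 10436053, and Dnmt3l (0.45), Lncenc1 (0.51) and Nanog (0.54) with cluster 10463138. For Dppa4 they were Zfp640 (0.38), Lncenc1 (0.43) and Zfp600 (0.43) with cluster 10436050, and Bcat1 (0.21), Slc35f2 (0.33) and Mybl2 (0.36) with cluster 10486954. Lncenc1 came up for 4 of the 12 clusters, and Dnmt3l and Nanog for 3 each. Dppa5a was nearest to a second cluster named Zfp640 (0.66), Tdgf1 (0.67) and Pou5f1 (0.70).

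Sall4 had other neighbours: 1700007K13Rik (0.33), Slc6a15 (0.34) and Dusp9 (0.36). Dusp9, a phosphatase of the ERK pathway, had means of 9.37 in ES cells, 8.40 in EB, 8.92 in CB and 5.88 at E17.5. In all, 42 rows outside the 9 genes were closer to Sall4 than its nearest fellow member, the Dppa4 cluster 10486954 at 0.66. The Dppa3 clusters differed from each other by 0.41, and 5254 rows outside the 9 genes were closer than that to cluster 10541515 and 10126 to cluster 10604135. Llcfc1, Spatc1l and Mir31 were nearest to cluster 10541515 and Lypd5, Olfr1352 and Pkd1l3 nearest to cluster 10604135. Since the rows share arrays and normalization, such distances say nothing of shared function or control.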

How the data were processed

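Affymetrix mouse gene array data of 12 RNA samples in 6 groups of 2 were used, each deposited at gene level and at exon level. The deposited log2 values came from the authors' RMA summary, made in Affymetrix Power Tools per the submitters' processing notes. Tool versions and the array's genome build are not given in the sources consulted. Values were used as deposited. Symbols came from the platform annotation, updated by Entrez number or synonym for the gene lists. Of the clusters 1621 had several symbols and 12146 none, and these were not tested. Lists used the cluster with the highest mean per gene.

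Fits used limma 3.58.1 in R 4.3.3 (lmFit, eBayes; moderated two-sided tests) over 12 arrays with 6 group means (6 residual and 5.77 prior degrees of freedom), for 9 comparisons, with Benjamini-Hochberg adjustment within each. The exon-level fit covered 3 culture comparisons. The fit was tested on simulated data. The number of arrays limits the precision. Files were read with the data.table package (version 1.17.8) and figures drawn with matplotlib 3.10.9 in Python 3.11.15. The genes, lists and naming rule (all 9 genes, the 3 nearest rows of each cluster, and up to 4 called genes of a list, largest changes first, in the culture comparisons described) were chosen with earlier results of these data known. The Sall paralogs and partner genes that were not called are named outside that rule.

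Alternatives were each array left out in turn, the replicate number as a block, a prior with an intensity trend, a filter on level, 1 cluster per gene, quantile normalization, and a median over each gene's exon-level values.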

Additional observations from a re-analysis of the deposited data

How the results depend on the processing

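The counts of called clusters between embryonic bodies and ES cells, between cardiac and embryonic bodies, and between each cultured group and E17.5 hearts stayed within 1.5 times the reported counts under all 18 alternatives. With the replicate number as a block these counts were 9, 9, 10, 10 and 10 of 12 clusters. Between cardiac bodies and ES cells the block left 1 called cluster in place of 2, and so did quantile normalization, the intensity trend in the prior and the median of exon-level values (1 each, the last of 9 genes). With 1 array left out that count ran from 0 to 2. Between adult and E17.5 hearts the count of 0 became 1 with the filter on level and 2 with the median of exon-level values (Dppa5a and Sall4, higher in adults), and ran from 0 to 1 with 1 array left out. Between adult and P1 hearts it ran from 0 to 2 with 1 array left out. The cause of these changes was not tested. The exon-level counts were 29, 24 and 0 with the replicate block, and ran from 21 to 28, from 15 to 26 and from 0 to 1 with 1 array left out. No called change of a cluster reversed its sign. Whether replicate numbers pair samples across groups is not stated in the labels. Over 15 pairs of groups the replicate differences correlated across clusters at -0.17 to 0.32, with 2 pairs over 0.1 and 4 under -0.1. With 1 difference per group, such values cannot decide whether samples were paired. Signal over background was not tested, so low values, those of hearts and Dppa3 above all, may understate or hide differences.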
